A study of Mus musculus with 10 samples.

Results

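Type I interferon-stimulated genes were followed across the RNA-seq libraries of mouse osteocytes, the cells embedded in bone matrix. The set holds 44 genes, listed by symbol, of the 22548 genes in the deposited table, and all 44 were matched and passed edgeR's filter on low counts, which left 16186 genes. The 5 No MM mice received no myeloma cells, and the paper's methods describe controls injected with an equal volume of PBS. The 5 MM mice carried Vk12598, a transplantable murine Vk*MYC myeloma line injected into the femur, and were examined after 6 weeks. Both groups were C57BL/6 mice, which the labels give as male and 8 weeks old. The tumor model is 1 line, Vk12598. Osteocytes were collected from bone pieces, after the marrow had been removed, by repeated collagenase and EDTA digestion, and 1 library per mouse was made. The libraries are called No MM 1 to No MM 5 and MM 6 to MM 10, after the mouse numbers.

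Type I interferons are secreted cytokines that bind the receptor made of IFNAR1 and IFNAR2. The receptor's kinases JAK1 and TYK2 then activate the complex ISGF3, which holds STAT2 and IRF9. ISGF3 binds the interferon-stimulated response element (ISRE) in the promoters of target genes, and the products of these genes block viral replication and tune the response itself. Interferon gamma acts through a different element, GAS, and many genes respond to both. In bone, interferon signaling is known for restraining osteoclast formation.

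The libraries held 31099174 to 39466332 reads on genes, and levels are given as CPM, counts scaled to the library size after TMM normalization. The osteocyte markers were detected in every library, with 49.5 CPM or more of Mepe, 68.3 CPM or more of Sost and 112 CPM or more of Dmp1. The preparations also held RNA of other cells. The 10 osteocyte markers summed to 333.9 to 2568 CPM in No MM and 443.0 to 1894 CPM in MM, against 7183 to 33120 CPM and 10222 to 31069 CPM for 9 neutrophil markers. Immunoglobulin genes took 26.6% of the reads in No MM 3 and 29.0% in No MM 4, against 0.637% to 3.86% in the other 8 libraries. The labels and the data also disagreed on sex, where the paper's methods give male or female mice. Xist was at 36.2 to 717.6 CPM, and 4 Y-linked genes (Ddx3y, Kdm5d, Uty and Eif2s3y) summed to at most 1.27 CPM, in the 7 libraries labelled No MM 1, No MM 2, No MM 3, No MM 4, MM 6, MM 7 and MM 8. The Y-linked sum was 142.1 to 176.0 CPM in No MM 5, MM 9 and MM 10. Results are therefore also given without these libraries.

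No interferon-stimulated member differed between MM and No MM past the test's threshold. Of the 44 members, 36 were higher (81.8%, against 47.3% of all tested genes) and 8 lower in MM by the fitted value, and the values of the groups overlapped for every one. On the log2 scale, the fold change (MM over No MM) had a median of 0.30 over the members, against -0.03 over all tested genes. The largest differences belonged to Mx1, with 1.20 on the log2 scale, Oas2 with 0.98 and Mx2 with 0.97. One mouse, MM 7, carried the highest level of 32 members, and without it the median was -0.03.

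In edgeR's quasi-likelihood test, 0 of the 44 members had an adjusted p under 0.05 in either direction, and neither did any other gene (0% of the 16186 tested genes higher and 0% lower). The smallest adjusted p among the members was 0.315. At an unadjusted p under 0.05, 5 members were higher in MM, or 11.4%, against 3.81% of all tested genes, and 0 were lower, against 10.3% of all tested genes. DESeq2 also gave no member an adjusted p under 0.05, where it called 0.192% of all tested genes higher and 0.914% lower. It gave 9 members higher and 0 lower at an unadjusted p under 0.05, against 5.34% and 11.5% of all tested genes. Complete separation of the groups was seen for 0.729% of all tested genes with MM above No MM and 0.68% below, and for 0 members. In these bulk samples, more cells that express a gene and more RNA per cell cannot be told apart.

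**Figure D1:**
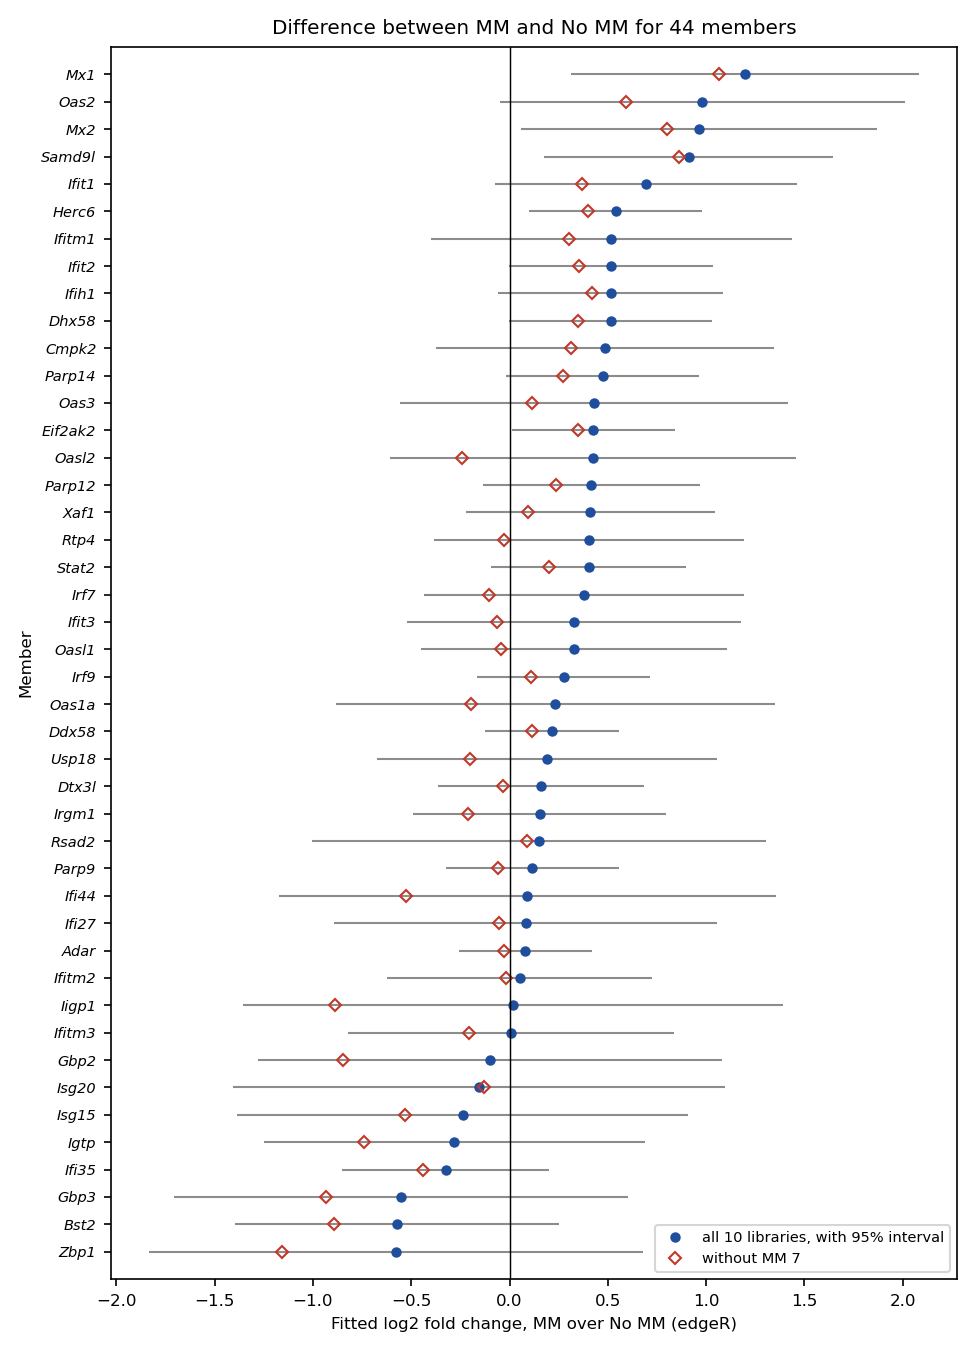
Fitted log2 fold change of MM over No MM for each of the 44 members, sorted, with all 10 libraries (filled points, lines are 95% intervals) and without MM 7 (open diamonds). Mx1 is at the top with 1.20 and Zbp1 at the bottom with -0.58, and the diamonds center near 0, with a median of -0.03.

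The members that stood out within each library were counted next. MM 7 was the highest of all 10 libraries for 32 of the 44 members, or 72.7%, against 3.27% of all tested genes. It was the highest of the 5 MM libraries for 39 members, against 9.5% of all tested genes. The other members peaked elsewhere. No MM 1 was highest for 6 (Isg15, Rsad2, Isg20, Ifi27, Ifitm2 and Ifitm3), although this library was also the highest for 19.8% of all tested genes. No MM 3 was highest for Bst2, Gbp3 and Ifi35, and No MM 4 for Zbp1, where these libraries together were highest for 32.5% of all tested genes. MM 8 was highest for Samd9l and Ifih1. These counts, and the choice of MM 7 as the library to single out, were made after the values were seen.

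The mean log2 CPM of the 44 members was 5.34, 4.91, 5.06, 4.86 and 5.07 in No MM 1 to No MM 5, and 5.11, 6.14, 5.40, 4.98 and 4.92 in MM 6 to MM 10. MM 7 was the highest of the 10, MM 8 lay just above No MM 1, and the other 3 MM libraries lay inside the No MM range. The level in MM 7 exceeded the median of the other 9 libraries for every member, by 0.14 (Isg20) to 2.07 (Iigp1) on the log2 scale, with a median of 1.03. Across all tested genes the same difference had a median of -0.01. It was over 1 on the log2 scale, more than 2-fold, for 23 members (52.3%), against 3.25% of all tested genes. MM 7 had 33133590 reads, within the range of the other libraries, and an immunoglobulin share of 1.92%. Its summed level of 8 T and NK cell markers was 126.1 CPM, the highest of the 10 libraries (32.3 to 112.3 CPM in the others), and its monocyte and macrophage markers summed to 1461 CPM, inside the range of the others (576.8 to 1855 CPM). The part of these cells in the levels of MM 7 was not tested.

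**Figure D2:**
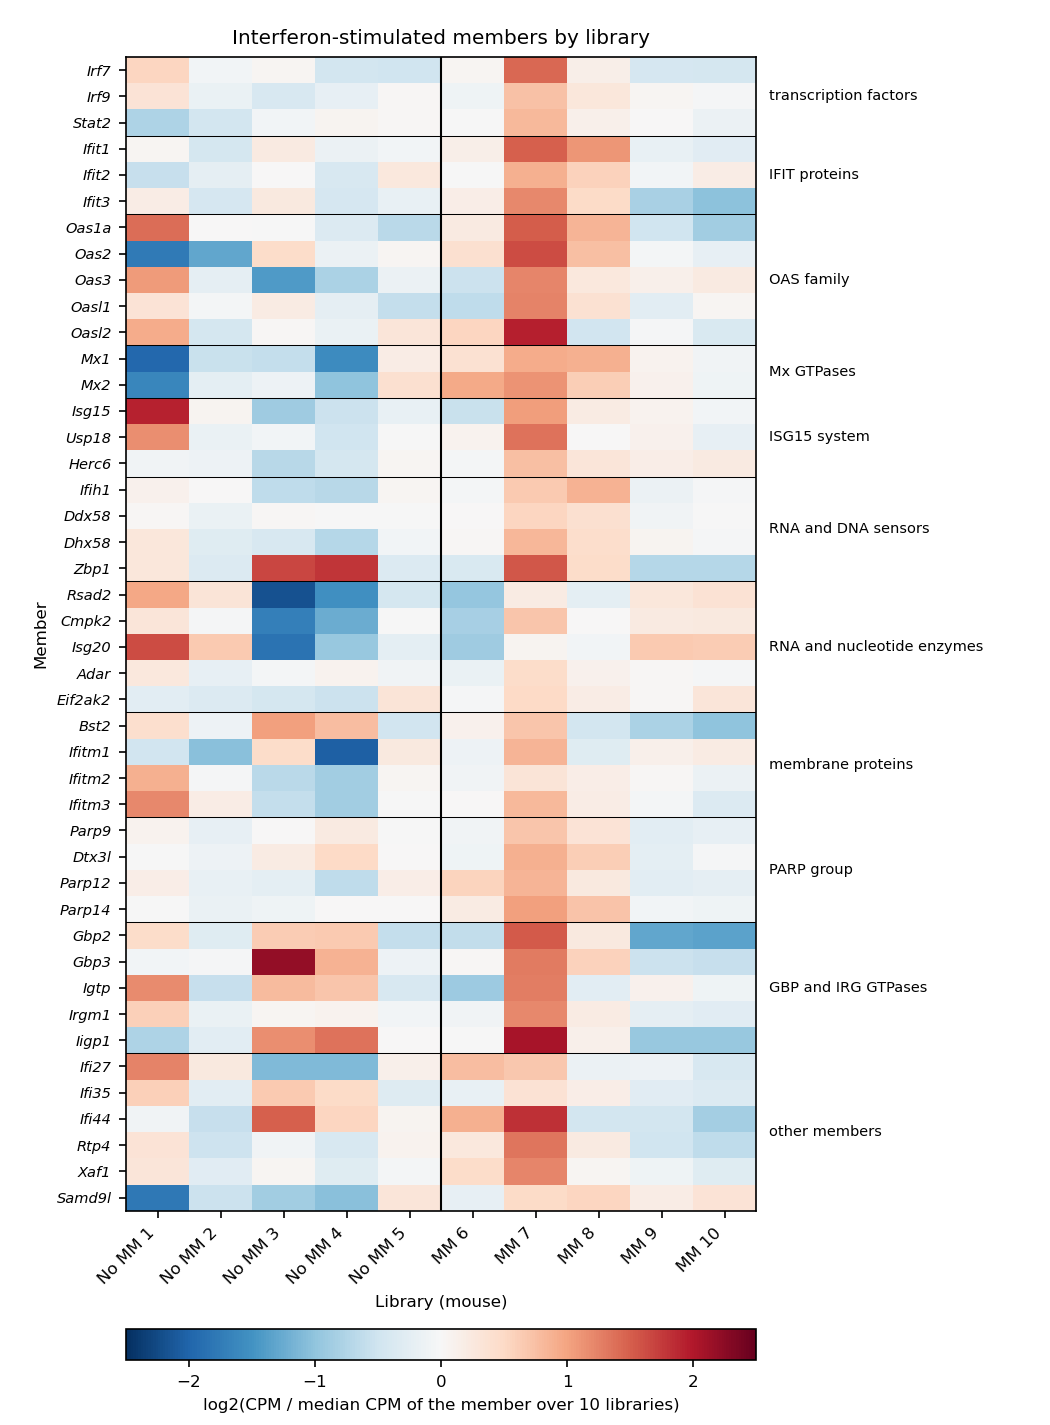
Each row is a member, grouped by role, and each column a library. Color gives log2 of the CPM over the member's median in the 10 libraries, with red above and blue below that median. The column of MM 7 is above the median for every member, palest for Isg20, with 32 members at their highest level there.

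**Figure D3:**
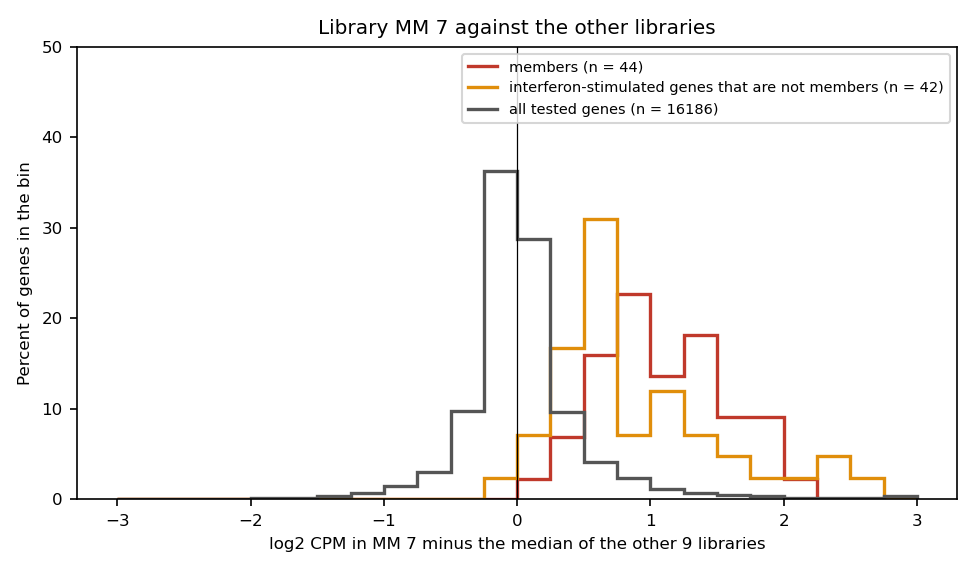
Percent of genes by the log2 CPM of MM 7 minus the median of the other 9 libraries, in bins of 0.25, where the outermost bins also hold values beyond the axis. The 44 members (median 1.03) and 42 interferon-stimulated genes outside the set (median 0.68) lie to the right of all tested genes (median -0.01).

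The Mx GTPases, which trap incoming viral nucleocapsids, had the largest median difference of any role, 1.08 on the log2 scale. Mx1 (chr16:97447035-97462907, build GRCm38 here and for all positions) encodes a protein known to be inactivated by a deletion in C57BL/6 mice. It stood at 2.59, 6.84, 6.69, 3.38 and 11.3 CPM in No MM 1 to No MM 5 and 13.04, 19.2, 18.5, 10.6 and 9.45 CPM in MM 6 to MM 10. Only No MM 5, the sole No MM library with Y-linked reads, reached the range of the MM libraries. The means were 6.17 ± 3.47 CPM in No MM and 14.2 ± 4.48 CPM in MM (SD, n = 5), with a log2 fold change of 1.20 (standard error 0.40, edgeR adjusted p = 0.315) and a 95% interval of 0.31 to 2.08. Mx2 (chr16:97535308-97560900), its neighbor, was the least abundant member per length and held as few as 24 reads in a library. It stood at 0.914, 2.39, 2.58, 1.42 and 3.75 CPM in No MM 1 to No MM 5 and 5.46, 6.19, 4.35, 3.03 and 2.63 CPM in MM 6 to MM 10. Again No MM 5 alone overlapped the MM range, and No MM 1 was lowest. For Mx2 the log2 fold change was 0.97 (standard error 0.41, edgeR adjusted p = 0.337). Without MM 7 it was 0.80, and that of Mx1 was 1.06.

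Samd9l (chr6:3372257-3399571), an antiviral factor that limits translation, stood at 30.5, 72.5, 57.3, 50.8 and 130.4 CPM in No MM 1 to No MM 5 and 91.0, 146, 153, 119.6 and 133 CPM in MM 6 to MM 10. No MM 5 lay within the MM range and the other 4 No MM libraries below it. For Samd9l the log2 fold change was 0.91 (standard error 0.33, edgeR adjusted p = 0.315), and 0.86 without MM 7. Herc6 (chr6:57580992-57665136), the main ligase for the ubiquitin-like protein ISG15 in mice, stood at 22.3, 21.7, 14.7, 17.5 and 24.6 CPM in No MM 1 to No MM 5 and 22.8, 40.1, 29.2, 26.6 and 27.8 CPM in MM 6 to MM 10. MM 6 was inside the No MM range and the other 4 MM libraries above it. The log2 fold change of Herc6 was 0.54 (standard error 0.20, edgeR adjusted p = 0.315). Eif2ak2 (chr17:78852564-78882573) encodes PKR, the kinase that stops translation on double-stranded RNA, and stood at 37.0, 34.6, 32.5, 30.5 and 55.3 CPM in No MM 1 to No MM 5 and 43.4, 62.1, 50.4, 44.8 and 54.5 CPM in MM 6 to MM 10. No MM 5 alone was as high as the MM libraries. The test gave Eif2ak2 a log2 fold change of 0.43 (standard error 0.19, edgeR adjusted p = 0.346). Mx1, Samd9l, Herc6, Mx2 and Eif2ak2 were the 5 members with an unadjusted p under 0.05.

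**Figure D4:**
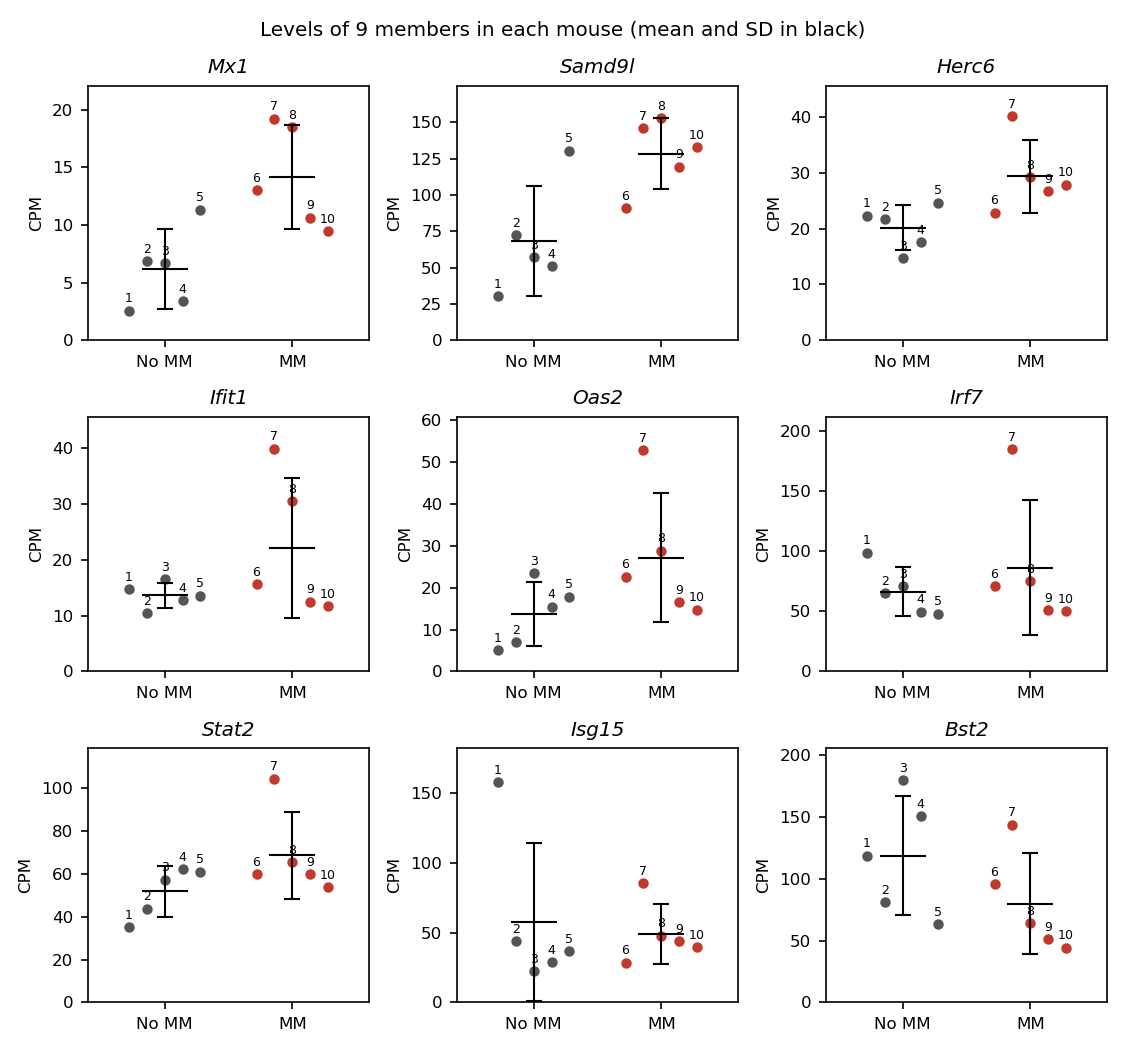
CPM of 9 members in each mouse, with the mouse number beside each point and the group mean and SD in black (n = 5). MM 7 is the highest point for Mx1, Herc6, Ifit1, Oas2, Irf7 and Stat2, while No MM 1 is highest for Isg15, No MM 3 for Bst2 and MM 8 for Samd9l.

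The IFIT proteins, which bind foreign RNA ends, were all 3 highest in MM 7, and none had an unadjusted p under 0.05. Ifit1 (chr19:34640871-34650009) stood at 14.7, 10.4, 16.6, 12.7 and 13.6 CPM in No MM 1 to No MM 5 and 15.6, 39.9, 30.5, 12.5 and 11.7 CPM in MM 6 to MM 10. MM 7 and MM 8 lay above every No MM library, and the other 3 MM libraries lay among them. Here Ifit1 had a log2 fold change of 0.70 (standard error 0.35, edgeR adjusted p = 0.392), and 0.37 without MM 7. Ifit2 (chr19:34550694-34576419) stood at 12.95, 16.7, 19.5, 14.7 and 23.4 CPM in No MM 1 to No MM 5 and 19.3, 35.8, 28.9, 18.6 and 22.2 CPM in MM 6 to MM 10. MM 7 and MM 8 were again above every No MM library, with No MM 5 next below them. For Ifit2 the log2 fold change was 0.52 (standard error 0.24, edgeR adjusted p = 0.358). Ifit3 ran from 18.7 to 29.8 CPM in No MM and from 12.4 to 57.8 CPM in MM, with MM 9 and MM 10 the lowest of all.

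The 250 bases before the start of Ifit1 are shown because Ifit1 is among the 10 members with the smallest p and holds 2 ISRE cores. They come from RefSeq (GRCm38.p6) and are written on the gene's strand, as are all the sequences that follow, with matches to the ISRE core in capitals. The core searched was TTTC, any 2 bases and TTTC again, or its reverse complement, GAAA, any 2 bases and GAAA. The matches span positions -104 to -76, counted from the first transcribed base as 1.
Ifit1 (chr19:34640639-34640888, plus strand): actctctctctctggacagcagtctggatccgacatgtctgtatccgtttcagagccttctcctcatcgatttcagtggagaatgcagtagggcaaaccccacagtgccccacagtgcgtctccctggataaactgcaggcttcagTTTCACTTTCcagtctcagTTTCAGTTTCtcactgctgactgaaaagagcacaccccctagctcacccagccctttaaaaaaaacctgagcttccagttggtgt
Of the 44 members, 33 had a 300-base RefSeq window, from 250 bases before to 50 bases after the start. Among these, 17 held the ISRE core on either strand, or 51.5%, against 3.99% of 27025 genes with such windows. The GAS motif TTCNNNGAA was found for 9 (27.3%), against 9.55%, and matches of the motifs may overlap. A match is a run of letters and no measured binding site. The other member among the 10 with the smallest p in which a core was found was Eif2ak2. Members without a RefSeq window were not searched, so a member not named here may be unsearched rather than without a core. The start is that of RefSeq and can differ from the start in the deposited table. The stretches of Eif2ak2 (match at 19 to 28) and Ifitm3 (3 to 29) lie after the start. The remaining 6 stretches of 30 bases were chosen after the matches were seen, to cover members whose highest libraries differ: Oas1a, Stat2 and Gbp2 (MM 7), Isg15 and Ifitm3 (No MM 1) and Bst2 (No MM 3).
Eif2ak2 (chr17:78882535-78882564, minus strand): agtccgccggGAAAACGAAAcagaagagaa
Oas1a (chr5:120907523-120907552, minus strand): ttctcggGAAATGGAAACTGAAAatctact
Stat2 (chr10:128270266-128270295, plus strand): cgcaccctggTTTCAGTTTCctttccctag
Gbp2 (chr3:142620594-142620623, plus strand): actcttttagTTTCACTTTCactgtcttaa
Isg15 (chr4:156200871-156200900, minus strand): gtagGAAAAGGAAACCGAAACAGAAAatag
Ifitm3 (chr7:141010714-141010743, minus strand): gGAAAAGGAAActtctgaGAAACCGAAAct
Bst2 (chr8:71537580-71537609, minus strand): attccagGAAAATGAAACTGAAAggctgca

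The OAS family is named for the synthesis of oligoadenylates, which activate RNase L. All 5 members were highest in MM 7, with log2 fold changes from 0.23 (Oas1a) to 0.98 (Oas2), and with a median of 0.42 that became -0.04 without MM 7. Oas2 (chr5:120730333-120749853) stood at 5.07, 6.93, 23.4, 15.5 and 17.8 CPM in No MM 1 to No MM 5 and 22.6, 52.8, 28.9, 16.5 and 14.8 CPM in MM 6 to MM 10. No MM 1 and No MM 2 were the lowest, and the other 3 No MM libraries overlapped MM 6, MM 9 and MM 10. The test gave Oas2 a log2 fold change of 0.98 (standard error 0.47, edgeR adjusted p = 0.373). Oasl2 reached 123 CPM in MM 7, against 22.7 to 46.00 CPM in the other MM libraries and 23.6 to 60.5 CPM in No MM. Oasl1, a translational repressor of Irf7 in mice, was 19.6 CPM in MM 7 and at most 10.8 CPM in any other library. Oas1a and Oas3 were high in both No MM 1 and MM 7, with 37.6 and 41.2 CPM for Oas1a and 63.0 and 69.5 CPM for Oas3.

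Irf7, Irf9 and Stat2, the transcription factors of the set, were each highest in MM 7. Irf7 (chr7:141262706-141266481), which amplifies interferon production, stood at 98.6, 65.1, 70.6, 49.5 and 48.0 CPM in No MM 1 to No MM 5 and 70.6, 185, 75.3, 50.9 and 49.9 CPM in MM 6 to MM 10. The other 4 MM libraries lay within the No MM range. Here Irf7 had a log2 fold change of 0.38 (standard error 0.37, edgeR adjusted p = 0.650), and -0.11 without MM 7. Irf9 (chr14:55603571-55610030), the DNA-binding part of ISGF3, stood at 84.2, 59.7, 50.4, 57.7 and 68.3 CPM in No MM 1 to No MM 5 and 62.0, 111, 80.7, 68.8 and 64.8 CPM in MM 6 to MM 10. The other 4 MM libraries again lay within the No MM range. For Irf9 the log2 fold change was 0.27 (standard error 0.20, edgeR adjusted p = 0.533). Stat2 (chr10:128270576-128292849) stood at 35.1, 43.8, 57.3, 62.3 and 61.0 CPM in No MM 1 to No MM 5 and 59.8, 105, 65.5, 59.8 and 53.7 CPM in MM 6 to MM 10. MM 8 lay just above the highest No MM library and the other 3 within the No MM range. The log2 fold change of Stat2 was 0.40 (standard error 0.23, edgeR adjusted p = 0.430). Irf7 overlaps Phrf1 by 45 bases on the opposite strand, and Irf9 overlaps Rnf31 by 123 bases on the same strand, so a few reads there could count for either gene.

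Isg15 and Usp18, of the ISG15 system, were highest in No MM 1 and MM 7. Herc6 was also highest in MM 7, but its level in No MM 1, 22.3 CPM, lay among the other No MM libraries (14.7 to 24.6 CPM). Isg15 (chr4:156199424-156200818) itself stood at 158, 43.6, 22.4, 28.6 and 36.5 CPM in No MM 1 to No MM 5 and 28.4, 85.3, 47.8, 43.96 and 39.5 CPM in MM 6 to MM 10. The group means were 57.8 ± 56.5 CPM in No MM and 49.0 ± 21.5 CPM in MM (SD, n = 5), and the log2 fold change was -0.24 (standard error 0.52, edgeR adjusted p = 0.857). Usp18 (chr6:121245906-121270916), the protease that removes ISG15 and also dampens signaling at the receptor, stood at 21.1, 8.39, 9.05, 6.64 and 9.34 CPM in No MM 1 to No MM 5 and 10.01, 24.2, 9.55, 10.2 and 8.20 CPM in MM 6 to MM 10. The other 4 libraries of each group spanned 6.64 to 9.34 CPM in No MM and 8.20 to 10.2 CPM in MM. The log2 fold change of Usp18 was 0.19 (standard error 0.39, edgeR adjusted p = 0.846).

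Among the sensors of foreign nucleic acid, Ifih1, Ddx58 and Dhx58 were higher in MM by the fitted value and Zbp1 lower, none past the threshold. Dhx58 (chr11:100694884-100704271), which tunes the other RNA helicase sensors, stood at 25.1, 16.7, 15.6, 12.7 and 19.7 CPM in No MM 1 to No MM 5 and 20.96, 36.8, 28.2, 21.7 and 20.4 CPM in MM 6 to MM 10. MM 7 and MM 8 were above every No MM library. The test gave Dhx58 a log2 fold change of 0.51 (standard error 0.23, edgeR adjusted p = 0.356). Ifih1, a sensor of long double-stranded RNA, ranged from 17.7 to 30.9 CPM in No MM and 26.0 to 52.9 CPM in MM, with MM 8 the highest and MM 7 next. Ddx58, which encodes RIG-I, varied little in No MM, from 36.1 to 41.3 CPM, and ran from 38.3 to 59.1 CPM in MM. MM 7 (59.1 CPM) and MM 8 (53.6 CPM) lay above every No MM library for Ddx58. Zbp1, a sensor of Z-form nucleic acid that can start necroptosis, followed a different order of libraries. It was 83.6 CPM in No MM 3, 90.5 CPM in No MM 4 and 77.0 CPM in MM 7, against 16.0 to 36.2 CPM in the other 7 libraries. Its log2 fold change was -0.58 with all libraries and 0.42 without No MM 3 and No MM 4, where all 4 sensors were higher in MM by the fitted value.

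The RNA and nucleotide enzymes varied widely among control mice. Isg20 (chr7:78913424-78920362), a 3′ exonuclease, stood at 331, 167, 29.4, 54.8 and 90.2 CPM in No MM 1 to No MM 5 and 57.3, 111, 101, 168 and 165 CPM in MM 6 to MM 10. The No MM libraries alone spanned 11.2-fold, with No MM 1 highest and No MM 3 lowest. Here Isg20 had a log2 fold change of -0.16 (standard error 0.57, edgeR adjusted p = 0.915). Rsad2, which encodes viperin, and its neighbor Cmpk2, a mitochondrial nucleotide kinase, were also lowest in No MM 3 and No MM 4. Rsad2 was 34.6 and 54.0 CPM there and 306 CPM in No MM 1, where MM ranged from 79.8 to 199.9 CPM. Cmpk2 ranged from 13.1 to 52.4 CPM in No MM and 23.9 to 68.1 CPM in MM. Adar, the adenosine deaminase that edits double-stranded RNA, spanned only 1.39-fold among the No MM libraries and was 101 CPM in MM 7.

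The highest levels per length belonged to the membrane proteins Ifitm2, Ifitm3 and Bst2 and the enzyme Isg20. Over the 10 libraries, Ifitm2 averaged 330.4, Ifitm3 298, Bst2 130.0 and Isg20 117 RPKM (CPM divided by the gene length in kilobases), where Mx2 averaged 1.32. The values of Ifitm2 and Ifitm3 overlapped over most of their range, as did those of Bst2 and Isg20. Ifitm2 (chr7:140954839-140955961), like its relatives a barrier to the fusion of viral and cell membranes, stood at 375, 198, 127, 109.7 and 207 CPM in No MM 1 to No MM 5 and 190.2, 251.9, 225, 205 and 183 CPM in MM 6 to MM 10. Ifitm3 (chr7:141009586-141010770) stood at 409.8, 203, 119, 98.2 and 178 CPM in No MM 1 to No MM 5 and 181, 315, 203, 174 and 142 CPM in MM 6 to MM 10. Both were highest in No MM 1 and lowest in No MM 3 and No MM 4, and MM lay between. Their log2 fold changes were 0.05 (standard error 0.31, edgeR adjusted p = 0.9504) and 0.01 (standard error 0.38, edgeR adjusted p = 0.995), and without No MM 3 and No MM 4 they were -0.33 and -0.41. Ifitm1, the relative found mainly at the cell surface, ranged from 12.1 to 68.5 CPM in No MM and 40.1 to 88.8 CPM in MM, lowest in No MM 4 and highest in MM 7.

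**Figure D5:**
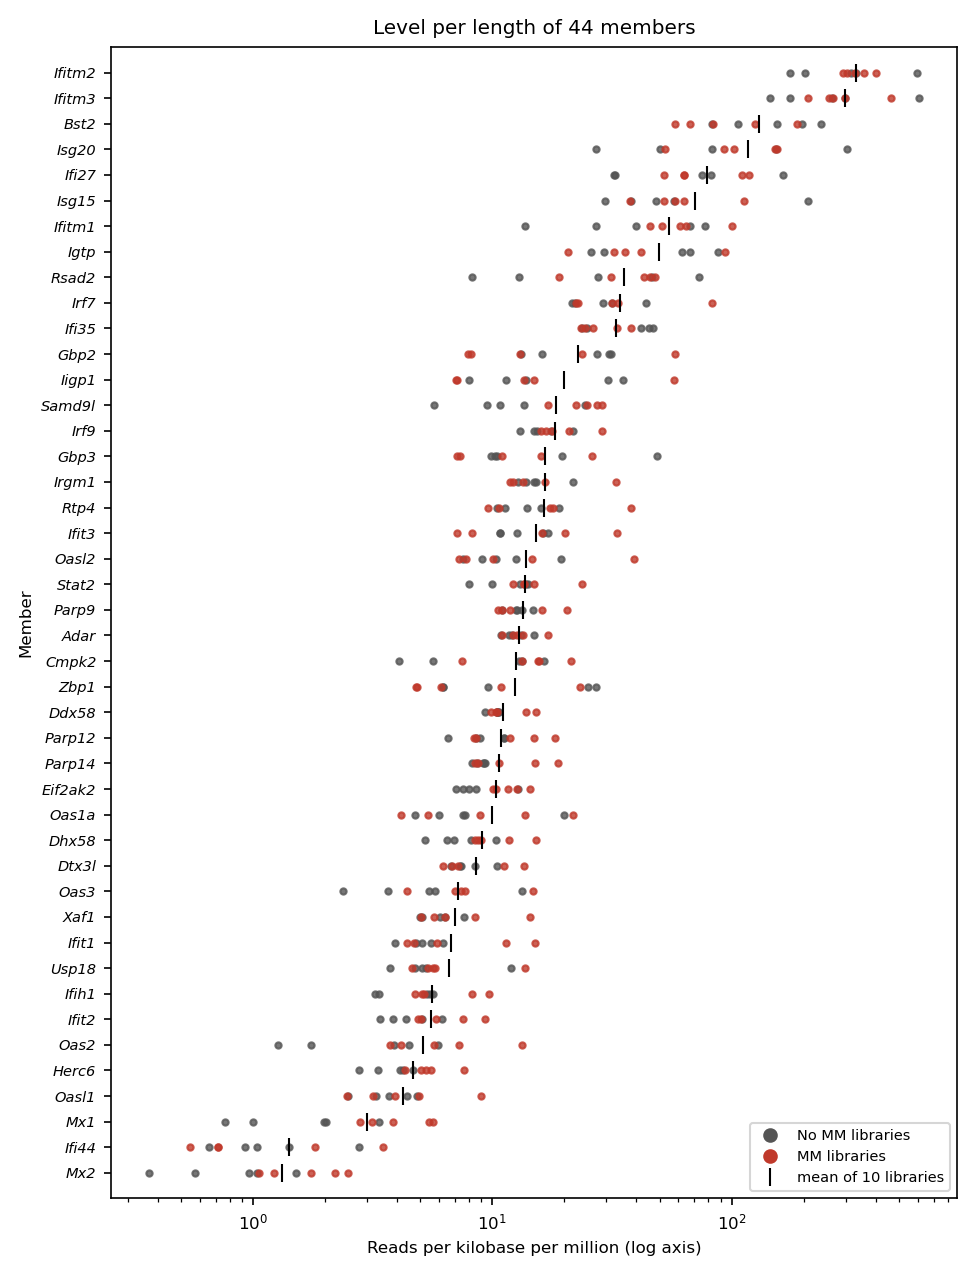
Level per length of the 44 members on a log axis, in RPKM, with 1 point per library (gray No MM, red MM) and a black bar at the mean of the 10 libraries. The means run from 1.32 for Mx2 to 330.4 for Ifitm2.

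Bst2 (chr8:71534264-71537437) encodes tetherin, which holds budding virus at the cell surface and is also a marker of plasma cells. It stood at 119, 80.9, 180.1, 151 and 63.3 CPM in No MM 1 to No MM 5 and 95.9, 144, 64.0, 51.3 and 44.3 CPM in MM 6 to MM 10. No MM 3, No MM 4 and MM 7 were the highest, and MM 9 and MM 10 the lowest. The log2 fold change was -0.57 (standard error 0.37, edgeR adjusted p = 0.489), and it was -0.16 without No MM 3 and No MM 4 and -0.89 without MM 7. No MM 3 and No MM 4 were the libraries rich in immunoglobulin reads. The 7 plasma cell markers measured summed to 3918 and 3763 CPM in them, against 364.6 to 646.5 CPM in the other No MM libraries and 339.5 to 406.9 CPM in MM, and all 7 were lower in MM at an unadjusted p under 0.05 (none at an adjusted p under 0.05). MM 7, at 400.8 CPM, was within the range of the other MM libraries. The 8 markers listed for plasmacytoid dendritic cells, which also carry Bst2, summed to 1613 and 1395 CPM in No MM 3 and No MM 4, and to 169.2 to 418.5 CPM elsewhere. Within that list Ly6d was 1313 and 1095 CPM there (30.7 to 101.2 CPM elsewhere) and Tcf4 243.8 and 256.3 CPM (48.5 to 114.4 CPM), while Siglech was 2.65 and 3.45 CPM (11.5 to 31.9 CPM). The part of these cells in the level of Bst2 was not tested.

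The guanylate-binding and immunity-related GTPases (Gbp2, Gbp3, Igtp, Irgm1 and Iigp1), which attack the vacuoles of intracellular pathogens and respond strongly to interferon gamma, shared the order of Bst2 in part. All 5 were highest of the MM libraries in MM 7. Iigp1 was 179 CPM in MM 7, 109 CPM in No MM 4 and 95.3 CPM in No MM 3, against 22.1 to 46.5 CPM in the other 7 libraries. Gbp3 was 131 CPM in No MM 3, the highest, and 70.2 CPM in MM 7. Gbp2 ranged from 33.3 to 78.7 CPM in No MM and 19.9 to 146 CPM in MM, with MM 9 and MM 10 the lowest. Igtp ranged from 52.5 to 177 CPM in No MM and 41.9 to 189 CPM in MM, with MM 7 and No MM 1 the highest. Irgm1, which regulates the other immunity-related GTPases, ranged from 48.9 to 83.4 CPM in No MM and 45.3 to 127 CPM in MM. Over these 5 genes the fold changes had a median of -0.10 (log2), and without MM 7 one of -0.85 with all 5 lower in MM. Without No MM 3 and No MM 4 the median was 0.20 with 4 of the 5 higher in MM, and Gbp3 turned from -0.55 to 0.39. Without these and MM 7 it was -0.28 with all 5 lower. None passed the threshold in these fits. Gbp3 overlaps Gbp5 by 13158 bases and Igtp overlaps Irgm2 by 7974 bases on the same strand, so the counting of these pairs is uncertain.

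The PARP group was highest in MM 7 for all 4 members. Parp14 (chr16:35832874-35871544), an ADP-ribosyltransferase, stood at 68.0, 61.1, 63.8, 69.1 and 68.6 CPM in No MM 1 to No MM 5 and 79.2, 139.9, 112, 64.9 and 63.0 CPM in MM 6 to MM 10. The No MM libraries spanned only 1.13-fold, and MM 6, MM 7 and MM 8 lay above all of them while MM 9 and MM 10 lay within. For Parp14 the log2 fold change was 0.47 (standard error 0.22, edgeR adjusted p = 0.366). Parp9 and Dtx3l, whose products form 1 complex, overlap by 682 bases on opposite strands, and had log2 fold changes of 0.12 and 0.16. Parp9 also shares 5854 bases with Gm15564 on the opposite strand, and without a stated strand setting their reads cannot be told apart. Parp9 ranged from 39.0 to 52.7 CPM in No MM and 37.5 to 72.6 CPM in MM, Dtx3l from 35.7 to 55.4 CPM in No MM and 33.0 to 72.2 CPM in MM. Parp12, with a log2 fold change of 0.42, ranged from 21.1 to 36.3 CPM in No MM and 27.0 to 59.0 CPM in MM. Of the remaining members, Rtp4, Xaf1 and Ifi44 were highest in MM 7, Ifi27 in No MM 1 and Ifi35 in No MM 3. Rtp4, a chaperone of receptors at the membrane, ranged from 16.5 to 29.9 CPM in No MM and 15.1 to 59.9 CPM in MM. Xaf1, an antagonist of the apoptosis inhibitor XIAP, ranged from 12.99 to 19.8 CPM in No MM and 13.1 to 37.3 CPM in MM. Each had its highest No MM value below the value in MM 7. Ifi27, a mitochondrial protein, ranged from 31.6 to 159.7 CPM in No MM and 51.1 to 116 CPM in MM, and Ifi35 from 32.3 to 63.9 CPM in No MM and 32.0 to 52.0 CPM in MM. Ifi44, the least abundant per length after Mx2, was 14.2 CPM in MM 7 and 11.3 CPM in No MM 3, with 2.21 to 7.37 CPM in the other 8 libraries.

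The rest of the pathway was read from lists of other genes. Of 21 interferon ligand genes, 3 were matched and 1, Ifng, passed the filter on low counts. Ifng was 1.35 CPM in MM 7, from 50 reads, and 0.182 to 0.520 CPM in the other 9 libraries, with a log2 fold change of 0.61 (standard error 0.53, edgeR adjusted p = 0.612). Ifng was named after its value was seen. Of 21 receptors, kinases and upstream factors, 1 (4.76%) was higher at an unadjusted p under 0.05, near the 3.81% of all tested genes. It was Tlr8, also named after its value was seen. Tlr8 was 54.6 CPM in MM 8, 14.8 to 20.0 CPM in the other MM libraries and 7.98 to 15.7 CPM in No MM. Of the 21, 0 were lower, against 10.3% of all tested genes. The median log2 fold change of the 21 was 0.21, against -0.03 over all tested genes. MM 7 was the highest library for 2 of these 21 (9.52%), against 3.27% of all tested genes. The mean log2 CPM of the 21 was highest in MM 8, with 6.00, against 5.68 in MM 7 and 5.31 to 5.41 in the other libraries. Over all tested genes, this mean was 3.68 to 3.83 in the 10 libraries. The receptor chain Ifnar1 stood at 55.9, 73.5, 111, 111 and 81.6 CPM in No MM 1 to No MM 5 and 80.5, 74.6, 86.0, 72.9 and 82.5 CPM in MM 6 to MM 10. It was highest in No MM 3 and No MM 4, and its log2 fold change was -0.13 (standard error 0.19, edgeR adjusted p = 0.783). Ifnar2 stood at 79.5, 60.0, 62.2, 80.4 and 63.4 CPM in No MM 1 to No MM 5 and 57.1, 69.8, 68.8, 56.8 and 56.0 CPM in MM 6 to MM 10. No MM 1 and No MM 4 lay above every MM library, MM 6, MM 9 and MM 10 below every No MM library, and the other libraries overlapped, with a log2 fold change of -0.16 (standard error 0.14, edgeR adjusted p = 0.607).

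Irf1, induced through GAS elements, stood at 89.2, 82.1, 97.5, 142 and 91.9 CPM in No MM 1 to No MM 5 and 86.8, 176, 120.1, 81.0 and 74.9 CPM in MM 6 to MM 10. Here Irf1 had a log2 fold change of 0.10 (standard error 0.26, edgeR adjusted p = 0.882), with MM 7 and No MM 4 the highest libraries. Irf8, a factor of myeloid cells, stood at 111, 122, 35.0, 41.7 and 90.8 CPM in No MM 1 to No MM 5 and 89.1, 155, 131, 113 and 103 CPM in MM 6 to MM 10. It was lowest in No MM 3 and No MM 4, with a log2 fold change of 0.56 (standard error 0.34, edgeR adjusted p = 0.463). Tlr7, an endosomal RNA sensor, stood at 19.9, 23.1, 16.1, 7.48 and 19.1 CPM in No MM 1 to No MM 5 and 23.0, 24.4, 27.9, 21.6 and 19.3 CPM in MM 6 to MM 10. No MM 4 was the lowest library, and the log2 fold change was 0.44 (standard error 0.27, edgeR adjusted p = 0.462). None of the 6 negative regulators had an unadjusted p under 0.05, against 3.81% of all tested genes higher and 10.3% lower. MM 7 was highest for 0 of these 6, against 3.27% of all tested genes.

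A further 44 interferon-stimulated genes outside the set were listed, of which 42 were matched and tested. At an unadjusted p under 0.05, 10 were higher in MM (23.8%) and 2 lower (4.76%), against 3.81% and 10.3% of all tested genes, with 0 at an adjusted p under 0.05. Their median log2 fold change came to 0.20, and to -0.13 without MM 7. MM 7 was the highest library for 20 of them (47.6%), against 3.27% of all tested genes. It was the highest of the MM libraries for 34 of them, against 9.5% of all tested genes. The 3 with the smallest p were Slfn8, Trim12a and Oas1b. Slfn8, of the Schlafen family, stood at 14.9, 18.8, 13.8, 13.4 and 22.7 CPM in No MM 1 to No MM 5 and 29.4, 45.1, 58.4, 21.9 and 21.8 CPM in MM 6 to MM 10. MM 9 and MM 10 overlapped No MM 5, and MM 8 was highest. For Slfn8 the log2 fold change was 1.08 (standard error 0.30, edgeR adjusted p = 0.315), and 0.98 without MM 7. Trim12a, of the tripartite motif family, stood at 20.3, 31.2, 17.8, 23.4 and 45.9 CPM in No MM 1 to No MM 5 and 43.1, 55.5, 45.3, 50.5 and 53.2 CPM in MM 6 to MM 10. Only No MM 5 reached the MM range. The test gave Trim12a a log2 fold change of 0.84 (standard error 0.25, edgeR adjusted p = 0.315). Oas1b, a relative of Oas1a, stood at 3.66, 5.29, 4.72, 5.84 and 9.53 CPM in No MM 1 to No MM 5 and 8.98, 14.4, 10.02, 11.2 and 9.37 CPM in MM 6 to MM 10. Here too No MM 5 alone overlapped MM, with a log2 fold change of 0.89 (standard error 0.28, edgeR adjusted p = 0.315).

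The counts of members at an unadjusted p under 0.05 were repeated without the libraries in doubt. Without MM 7, 2 members were higher (Mx1 and Samd9l) and 1 lower (Bst2), against 2.57% of tested genes higher and 7.34% lower, and 20 members were higher and 24 lower by the fitted value. Without No MM 3 and No MM 4, 2 members were higher (Mx1 and Oas2) and 0 lower, against 2.51% and 3.37%, with a median log2 fold change of 0.25. Without No MM 3, No MM 4 and MM 7, 1 was higher (Oas2) and 0 lower, against 1.89% and 1.73%, with a median of -0.05. Among the 7 libraries with Xist and almost no Y-linked reads, which leave 4 No MM and 3 MM mice, 13 members were higher and 0 lower, against 4.09% and 6.94%, with a median of 0.50. These include MM 7. Without it, in 4 against 2 mice, 3 were higher (Mx1, Mx2 and Samd9l) and 0 lower, against 2.16% and 2.47%, with a median of 0.13. The 3 libraries with Y-linked reads hold only 1 No MM mouse and were not tested alone. That mouse, No MM 5, was the only No MM mouse to overlap MM for Mx1, Mx2, Samd9l, Eif2ak2, Trim12a and Oas1b. The part of sex in this overlap was not tested. No member had an adjusted p under 0.05 in any of these fits. The 7 dendritic cell markers summed to 43.8 to 66.8 CPM in No MM and 68.9 to 164.6 CPM in MM, with p = 0.00794 in a two-sided exact permutation test, the smallest that 5 against 5 can give (adjusted p = 0.119 over 15 values). The 164.6 CPM belonged to MM 8, and the other MM libraries lay at 68.9 to 78.9 CPM. The list holds Clec9a, which the paper picked as higher in MM from this same RNA-seq comparison. The test is therefore not independent of these data. The part of dendritic cells in the members' levels was not tested.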

How the data were processed

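RNA-seq covered the osteocytes of 5 No MM and 5 MM mice, each 1 TruSeq Stranded Total RNA library. The groups were taken from the sample labels. The authors deposited read counts per gene, without normalization. They also deposited these counts divided by 1 size factor per library (0.765 to 1.195) as a normalized signal, FPKM values, gene lengths, and results of their own comparison (log2 fold changes and p-values). Besides the counts, only the gene lengths were used. The submitters' processing notes name FastQC 0.11.5 and STAR, and the counting program, its strand setting and the annotation are not given in the sources used here. All 44 members were found in GENCODE M21 (GRCm38), 31 of them with the same start and end.

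Counts were filtered with filterByExpr (16186 of 22548 genes kept), scaled with TMM, and compared between MM and No MM by the quasi-likelihood test of edgeR 4.0.16 (glmQLFit, glmQLFTest) in R 4.3.3, with no covariate. The Benjamini-Hochberg adjustment covered every tested gene, with a threshold of 0.05. The biological coefficient of variation was 0.46, and the script was tested on simulated data. A prior count of 2 entered log2 CPM. Marker sums and library values were compared by two-sided exact permutation tests over every split of the mice. The libraries held 31099174 to 39466332 reads, and shares of reads are given per library without an interval. The immunoglobulin share also varied among mice, with 12.5% ± 14.0% in No MM and 1.44% ± 0.38% in MM (mean and SD, n = 5). Motifs were searched on both strands of RefSeq promoter windows.

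The members, the lists of pathway and marker genes and the tests were chosen with earlier results of these data known. Values per library are given for the 10 members with the smallest p, the 4 with the highest level per length, and Irf7, Irf9, Stat2, Isg15, Usp18, Ifit1, Mx1 and Bst2. Of the pathway genes they are given for Ifnar1, Ifnar2, Irf1, Irf8, Tlr7 and the 3 with the smallest p. One further gene is not reported here, and Ifnb1 and the Ifitm proteins were not analysed here. Alternatives were DESeq2 1.42.0, RLE and upper-quartile size factors, no filter or at least 10 counts in every library, immunoglobulin genes left out, and single libraries, or No MM 3 and No MM 4, left out. Fits without No MM 3, No MM 4 and MM 7, and fits without No MM 5, MM 9 and MM 10, with or without MM 7, were added after the data were seen.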

Additional observations from a re-analysis of the deposited data

Results flagged for a closer look

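The named genes were checked in both groups, 56 sets of 5 libraries, for a single library that stands apart. This was so in 7 sets, of which 3 concern MM 7. In each of the 7, the gap to the nearest library, as a part of the whole range of the group, exceeded the critical value of 0.71. That value is passed by about 1 in 20 sets, or 2.8, only where the sets are independent and the values normally distributed. The sets here share the same mice, so 7 cannot be read as an excess over chance.

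Irf7 in MM was 184.5 CPM in MM 7 and 49.9 to 75.3 CPM in the other MM libraries, a gap of 0.811. Stat2 in MM was 104.5 CPM in MM 7 and 53.7 to 65.5 CPM in the others, a gap of 0.769. Usp18 in MM was 24.2 CPM in MM 7 and 8.20 to 10.2 CPM in the others, a gap of 0.873.

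Usp18 in No MM was 21.1 CPM in No MM 1 and 6.64 to 9.34 CPM in the others, a gap of 0.814. Isg15 in No MM was 157.8 CPM in No MM 1 and 22.4 to 43.6 CPM in the others, a gap of 0.843. Eif2ak2 in No MM was 55.3 CPM in No MM 5 and 30.5 to 37.0 CPM in the others, a gap of 0.739. Irf1, a pathway gene outside the set, was 142.3 CPM in No MM 4 and 82.1 to 97.5 CPM in the other No MM libraries, a gap of 0.744.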

How the results depend on the processing

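No paired analysis was possible because no replicate number occurs in both groups. The study calls its differential analysis paired, but the labels match no mouse of one group with one of the other. Over 20 alternatives, 0 members had an adjusted p under 0.05 in either direction, and the lowest adjusted p of a member was 0.0898 (edgeR) or 0.0983 (DESeq2). At an unadjusted p under 0.05, 5 members were higher in MM with the settings of the report. This count was 8 with RLE and 8 with upper-quartile size factors, 9 with DESeq2, 8 with at least 10 counts in every library, 2 without No MM 3 and No MM 4, and 2 to 10 with single libraries left out (0 to 1 lower). Among the fits added after the data were seen, it was 1 without No MM 3, No MM 4 and MM 7, 13 without No MM 5, MM 9 and MM 10, and 3 when MM 7 was left out as well. Of all tested genes, 617 (3.81%) were higher at this level with the settings of the report and 865 (5.34%) with DESeq2. That number ran from 291 to 1276 over the 20 alternatives, so a change in the members' count alone is no result about the members. The median log2 fold change of the members lay between -0.03 and 0.48 with single libraries left out.

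Over all tested genes, DESeq2 called 31 higher and 148 lower at an adjusted p under 0.05, where edgeR called 0. At an unadjusted p under 0.05, 560 genes were lower without No MM 3 and No MM 4, 311 were higher and 285 lower without these and MM 7, and 368 were higher and 421 lower without No MM 5, MM 7, MM 9 and MM 10. With single libraries left out, 291 to 1276 were higher and 939 to 2376 lower.

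Several fold changes turned direction. Without No MM 3 and No MM 4, Zbp1 turned from -0.58 to 0.42 and Gbp3 from -0.55 to 0.39, Gbp2 turned to 0.20, Oas1a to -0.030, Oas3 to -0.017, Rsad2 to -0.42 and Ifi27 to -0.42. Ifitm3 was -0.0094 with immunoglobulin genes left out. Without No MM 3 and No MM 4, Ifitm2 was -0.33, Ifitm3 -0.41, Usp18 -0.083 and Ifnar1 0.16. Without these and MM 7, Ifitm2 was -0.40, Ifitm3 -0.62, Irf7 -0.22, Irf9 -0.057, Usp18 -0.47, Ifnar1 0.18 and Irf8 -0.0058. Without No MM 5, MM 7, MM 9 and MM 10, Ifitm3 was -0.11 and Usp18 -0.20. With single libraries left out, the ranges were -0.11 to 0.39 for Ifitm2, -0.21 to 0.44 for Ifitm3, -0.42 to 0.50 for Isg20, -0.53 to 0.58 for Isg15, -0.11 to 0.56 for Irf7, -0.20 to 0.57 for Usp18 and -0.15 to 0.26 for Irf1. The cause was not tested. Among the members, depth limits Mx2 most, with 24 reads in its lowest library.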
